A study of Mus musculus with 3 samples.

Results

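The 9 genes described here are Atf3, Sox11, Gap43, Sprr1a, Jun, Ecel1, Gadd45a, Stmn4 and Flrt3, which sensory neurons are known to switch on after their axons are cut. They were taken by name, as injury and regeneration genes of the dorsal root ganglion (DRG), from the 32227 genes of the count tables, and all 9 had UMIs (unique molecular identifiers, each counting 1 captured RNA molecule) in neuron-like nuclei. Nuclei came from frozen lumbar DRGs, L3 to L5, of C57BL/6 mice labelled male, and were profiled by PIP-seq, a droplet method for single nuclei. The adult group, aged 3 months, was 1 library and the aged group, aged 21 months, was 2 libraries, and the labels name no nerve injury or treatment for either. For the aged mice the series' design text and the labels give different ages, and the labels were followed here, the study's methods call its aged mice female, and the number of mice pooled in a library is not given in the labels. UMIs of Xist, which is transcribed from the inactive X chromosome, and of the Y-linked Ddx3y were both present in each library, with 127630 and 1860 in the adult library, 47168 and 738 in aged library 1 and 34951 and 296 in aged library 2.

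Injury to a peripheral axon is known to start a transcription programme in the neuron's nucleus. Kinase signals reach JUN and ATF3, which bind DNA as dimers, and SOX11 acts beside them, while growth cone proteins such as GAP43 and the stathmins serve the axon that regrows. In the uninjured ganglion ATF3 and SPRR1A are known to be scarce, and for this reason both are widely used as marks of an injured sensory neuron.

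The DNA just before the transcription start is shown for the 5 members whose start region held an element of the kind that JUN and ATF dimers are known to bind. The sequences are from RefSeq, build GRCm38.p6, all on the minus strand and read 5′ to 3′, with the matched letters in capitals. Windows of 250 bases before to 50 bases after the start were searched on both strands. Windows were at hand for 7 of the 9 members, without Gap43 and Stmn4, and the motifs were chosen after the sequences had been seen.
Jun, chr4:95052234-95052293: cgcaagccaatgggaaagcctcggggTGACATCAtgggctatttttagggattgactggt
Sox11, chr12:27342727-27342786: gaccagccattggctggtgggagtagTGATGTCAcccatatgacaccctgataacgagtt
Flrt3, chr2:140671484-140671543: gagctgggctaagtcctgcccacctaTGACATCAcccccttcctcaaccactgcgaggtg
Sprr1a, chr3:92486055-92486114: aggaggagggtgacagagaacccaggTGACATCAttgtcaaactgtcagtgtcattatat
Atf3, chr1:191183334-191183393: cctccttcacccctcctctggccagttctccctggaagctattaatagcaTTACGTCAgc

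TGACATCA, on either strand, was in the windows of 4 of the 7 members, against 4.18% of the 27025 gene symbols in the RefSeq table. It began 45 bases before the start in Jun, 42 in Sox11, 41 in Flrt3 and 207 in Sprr1a. The Sprr1a window also held TGANTCA, the AP-1 element, beginning 146 and 116 bases before the start, and 8.97% of symbols held it. TTACGTCA lay 10 bases before the start of Atf3 and was in 0.581% of symbols, and TGACGTCA was in none of the 7 and in 2.03% of symbols. That Atf3 start is a RefSeq start inside the gene, which spans chr1:191170296-191218039 in the GENCODE M21 annotation. These matches describe the letters of the windows and were not tested against the counts.

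A nucleus was kept if it had more than 1000 genes, which left 11518 nuclei in the adult library, 5130 in aged library 1 and 2611 in aged library 2, with median UMIs of 3269, 4317.5 and 4900. Clusters were named from marker genes, giving 17623 named nuclei, of which 8261 were neuron-like (4541, 2418 and 1302). The clusters depended on the locale in which the program ran, which sets the order of names. Run in another locale, the same clustering gave 32 clusters instead of 30, with 7574 neuron-like nuclei and 1425 instead of 2200 nuclei of the large-fiber subtype described further on as NF-like, and where this changed a call named below, the other value is given beside it. Kept nuclei held 53.8% to 58.4% of each library's UMIs. Barcodes of 100 or fewer UMIs served to measure free RNA, the RNA that leaks from broken cells into every droplet. Malat1, a nuclear RNA, made up 4.32% of neuron-like UMIs in the adult library against 1.35% and 1.55% in the aged libraries, and clusters of low Malat1 held 20.4% of adult neuron-like nuclei against 41.5% and 30.7%. Levels below are UMIs summed over the nuclei of a class in a library and scaled to the total of that sum (CPM). With 1 adult library, the age test takes its spread from the 2 aged libraries and pools it over the genes of a fit. A small p-value therefore need not mean that the 2 aged libraries agreed on that gene. The p-values measure spread between libraries only, and an effect of age cannot be told apart from other differences between these libraries.

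Across cell classes, Sox11 and Gap43 were the members whose range over the libraries in neuron-like nuclei lay above that of every other class. SOX11 is a transcription factor of developing and regenerating neurons, and its level in neuron-like nuclei was 43.9 CPM in the adult library, 58.1 in aged library 1 and 57.7 in aged library 2. Every other class lay below that range, the next by mean being myeloid-like nuclei at 3.39 to 9.42 CPM. GAP43, a membrane protein of growth cones, had neuron-like levels of 165, 185 and 162 CPM, and the next class by mean, endothelial-like, had 63.6 to 96.9 CPM. Free RNA held Gap43 at 285, 312 and 286 CPM, above its neuron-like level in each library. Against the mean of the 7 other classes, neuron-like nuclei were higher by 3.62 ± 0.25 (log2, ± SE) for Sox11, with adjusted p = 9.84e-12, and by 2.02 ± 0.13 for Gap43, with adjusted p = 1.89e-12 (quasi-likelihood test of edgeR, Benjamini-Hochberg adjusted, as for every adjusted p below). With the expected free RNA subtracted the Gap43 difference still passed, at 6.06 with adjusted p = 1.12e-07. Of all 13932 genes in that fit 68.2% differed between neuron-like nuclei and the other classes, and for the 7 other classes the share was 21.2% to 50.2%.

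Stmn4, Flrt3 and Gadd45a also stood above the mean of the other classes in neuron-like nuclei. STMN4 is a stathmin, a protein that binds tubulin, and its difference was 2.09 ± 0.33 on the log2 scale (adjusted p = 5.79e-06). FLRT3 is a membrane protein of cell adhesion and axon guidance and differed by 0.89 ± 0.19 (adjusted p = 0.000213), and GADD45A, a stress and DNA damage response protein, by 0.69 ± 0.23 (adjusted p = 0.0123). The Flrt3 and Gadd45a calls were lost without aged library 1, at 0.76 and 0.43, and that of Gadd45a also without clusters of low Malat1, at 0.35, and with DESeq2, at 0.63 (adjusted p = 0.0565). Flrt3 was highest in nuclei like non-myelinating Schwann cells (NMSC-like), at 40.7, 77.0 and 59.6 CPM, where it stood 2.09 ± 0.23 above the mean of the other classes (adjusted p = 3.2e-07), in a fit where 21.2% of genes differed for these nuclei. When classes were set by a gate on marker UMIs in each nucleus instead of clusters, the calls of Flrt3 (0.77), Jun (0.56) and Atf3 (0.70) in NMSC-like nuclei were lost.

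Atf3 and Jun did not follow that pattern. ATF3, a stress-induced transcription factor, was highest in myeloid-like nuclei, at 22.8 CPM in the adult library from 3 UMIs, 71.1 CPM in aged library 1 and 70.7 CPM in aged library 2. Those nuclei stood 3.02 ± 0.32 (log2) above the mean of the other classes (adjusted p = 3.8e-08), where 50.2% of genes differed, whereas the difference for neuron-like nuclei was 0.32 ± 0.25 (adjusted p = 0.274). Atf3 was also higher in NMSC-like nuclei, by 1.32 ± 0.38 (adjusted p = 0.0129), a call lost with more than 2000 genes per nucleus (adjusted p = 0.101). It was lower than the mean of the other classes in nuclei like satellite glial cells (SGC-like), by 1.39 ± 0.36 on the log2 scale (adjusted p = 0.00313), where 47.1% of genes differed, and in fibroblast-like nuclei, where 33.9% did. In MSC-like nuclei, described further on, the difference was -1.16 (adjusted p = 0.0376), a call lost with the other clustering (adjusted p = 0.0511). The SGC-like and fibroblast-like calls were lost with more than 2000 genes per nucleus, at -1.15 and -1.51, and with the marker gate, at -0.61 and -0.01. For MSC-like, endothelial-like and lymphocyte-like nuclei 37.7%, 27.2% and 29.9% of genes differed. JUN, the AP-1 subunit needed for the regenerative response, was 0.91 ± 0.20 higher in NMSC-like nuclei (adjusted p = 0.00179), a call lost without aged library 1 at 0.75, and differed by 0.26 ± 0.17 in neuron-like nuclei (adjusted p = 0.174). Without the clusters of low Malat1 the neuron-like value for Jun was -0.28. In the order of mean levels, the ranges of neighbouring classes overlapped for each member, except for neuron-like nuclei at the top for Sox11 and Gap43 and NMSC-like nuclei at the top for Flrt3. Sprr1a and Ecel1 had too few UMIs for this test.

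**Figure D1:**
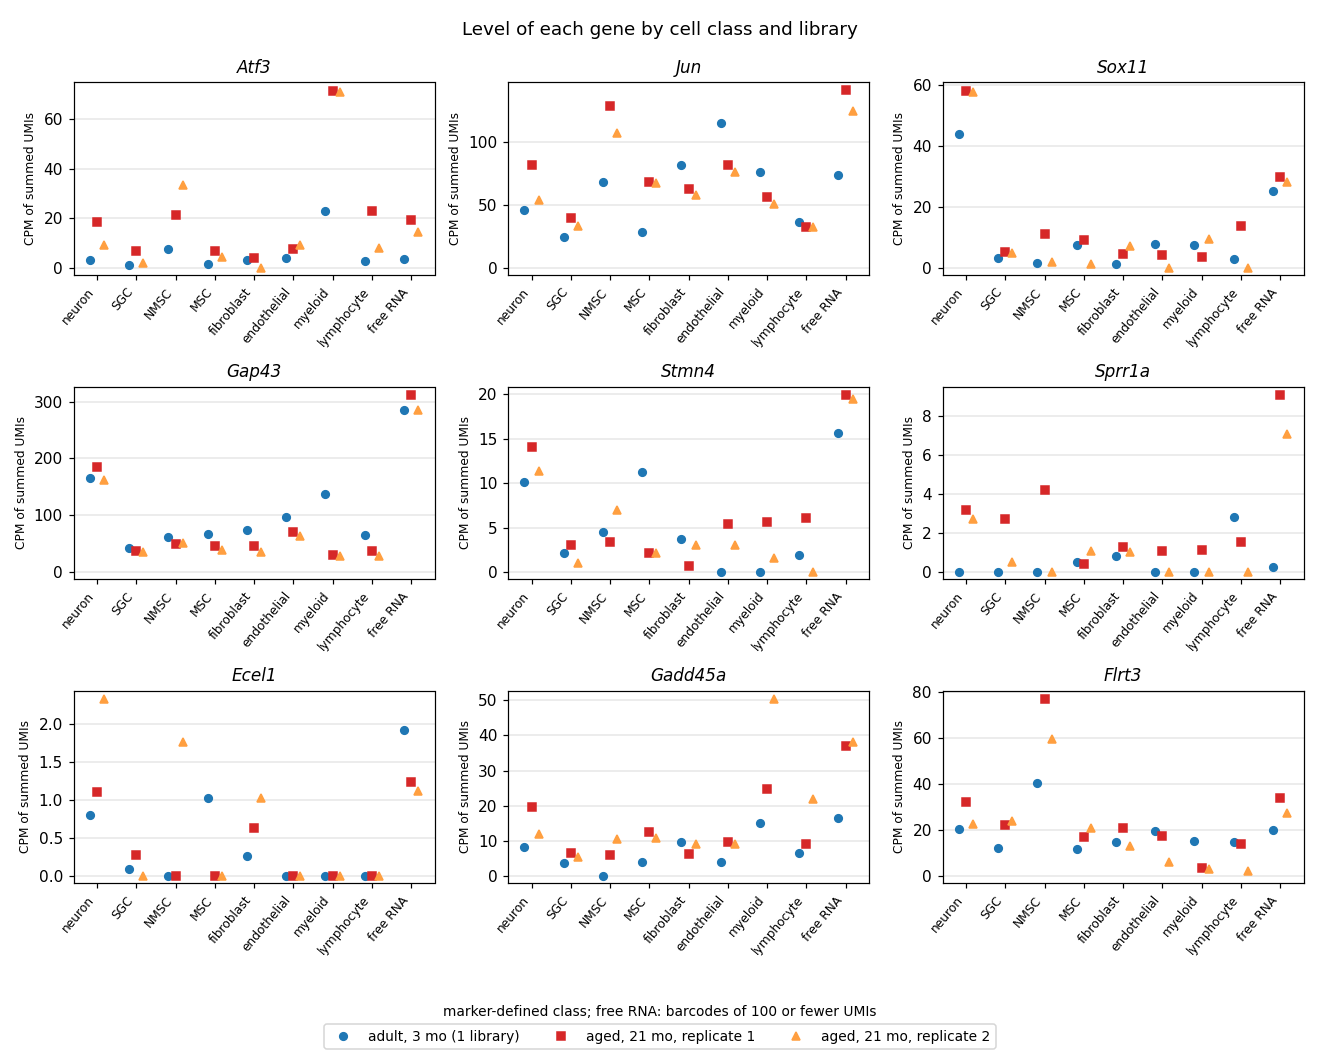
Level of each member, in CPM on a linear axis, in each cell class and in free RNA, with 1 point per library (adult, aged replicates 1 and 2). Neuron-like nuclei stand apart for Sox11 and Gap43, whereas Atf3 is highest in myeloid-like nuclei.

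Among neurons the members fell into different subtypes. Clusters were called by their leading markers as nuclei like Mrgprd non-peptidergic nociceptors (NP-like), Sst and Nppb itch neurons (SST-like), peptidergic C-fiber neurons (PEP-like), Trpm8 cold neurons (TRPM8-like), peptidergic A-fiber neurons (PEP-A-like), Th mechanoreceptors (TH-like) and large-fiber neurons (NF-like). The NF-like name rests on 4 of 8 markers in a cluster of 762, 318 and 124 nuclei, which met 3 of 8 neuron markers. In the other NF-like clusters it rests on 5 and 4 of 8. The PEP-A-like name rests on 3 of 5 markers, and of its 805 nuclei the marker gate put 394 in NF-like and 124 in PEP-A-like. Gap43 was 490, 490 and 425 CPM in PEP-like nuclei and 347, 367 and 396 CPM in PEP-A-like nuclei, against 42.2, 32.1 and 18.5 CPM in TH-like nuclei. PEP-like nuclei were 2.15 ± 0.12 above the mean of the other subtypes (adjusted p = 1.69e-11) and TH-like nuclei were below it, at -2.20 ± 0.18 (adjusted p = 2.99e-09). In this fit of 16378 genes 45.5% differed for PEP-like nuclei, 37.1% for TH-like, 37.7% for NP-like, 31.5% for SST-like, 48.5% for NF-like, 26.2% for TRPM8-like and 46.2% for PEP-A-like.

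By mean level Stmn4 followed Gap43 in its highest and lowest places, with 34.6, 37.0 and 30.1 CPM in PEP-like nuclei and 3.04, 2.47 and 1.79 CPM in TH-like nuclei. In the adult library alone Stmn4 was lower in NP-like nuclei, at 2.48 CPM, and Gap43 in NF-like nuclei, at 41.0 CPM. Sox11 had another order, highest in NP-like nuclei at 69.9, 81.5 and 83.0 CPM and lowest by mean in PEP-A-like nuclei at 22.2, 33.4 and 29.4 CPM, although SST-like nuclei were at 27.1 CPM in aged library 1. Flrt3 was also highest by mean in NP-like nuclei, at 42.1, 47.6 and 38.8 CPM, although SST-like nuclei reached 39.8 CPM in aged library 2. It stood 1.36 ± 0.16 above the mean of the other subtypes (adjusted p = 6.82e-07). Jun was high in PEP-like nuclei (109, 141 and 87.8 CPM) and in NF-like nuclei (52.8, 136 and 125 CPM), with differences of 1.49 ± 0.17 (adjusted p = 7.6e-07) and 1.40 ± 0.18 (adjusted p = 1.19e-06). The NF-like call for Jun was lost without clusters of low Malat1, at 0.38.

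Ecel1, a membrane peptidase, was highest in SST-like nuclei by mean level. It had 20 UMIs there in the adult library, 3 in aged library 1 and 29 in aged library 2, for 8.32, 1.63 and 18.0 CPM, of 54, 45 and 70 UMIs in all neuron-like nuclei. Single nuclei carried most of this, with 18 of the 20 UMIs in 1 adult nucleus and 20 of the 29 in 1 nucleus of aged library 2. In aged library 1 PEP-like nuclei were higher, at 1.89 CPM. In the fit over all libraries SST-like nuclei were 3.94 ± 0.64 above the mean of the other subtypes (adjusted p = 5.01e-05). Sprr1a also passed in SST-like nuclei, at 3.34 ± 0.82 (adjusted p = 0.00336), but all 52 of its UMIs there were in aged library 2, and without that library the value was -5.29. With the marker gate, the log2 difference of Gap43 in SST-like nuclei went from 0.76 to -0.54 and in NF-like nuclei from -1.40 to 0.01. In the order of mean levels by subtype, ranges of neighbours did not overlap between PEP-like, PEP-A-like and SST-like nuclei and between TRPM8-like and NF-like nuclei for Gap43, below PEP-like nuclei for Stmn4 and below PEP-like nuclei, the fourth in order, for Flrt3, and all other neighbours overlapped.

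**Figure D2:**
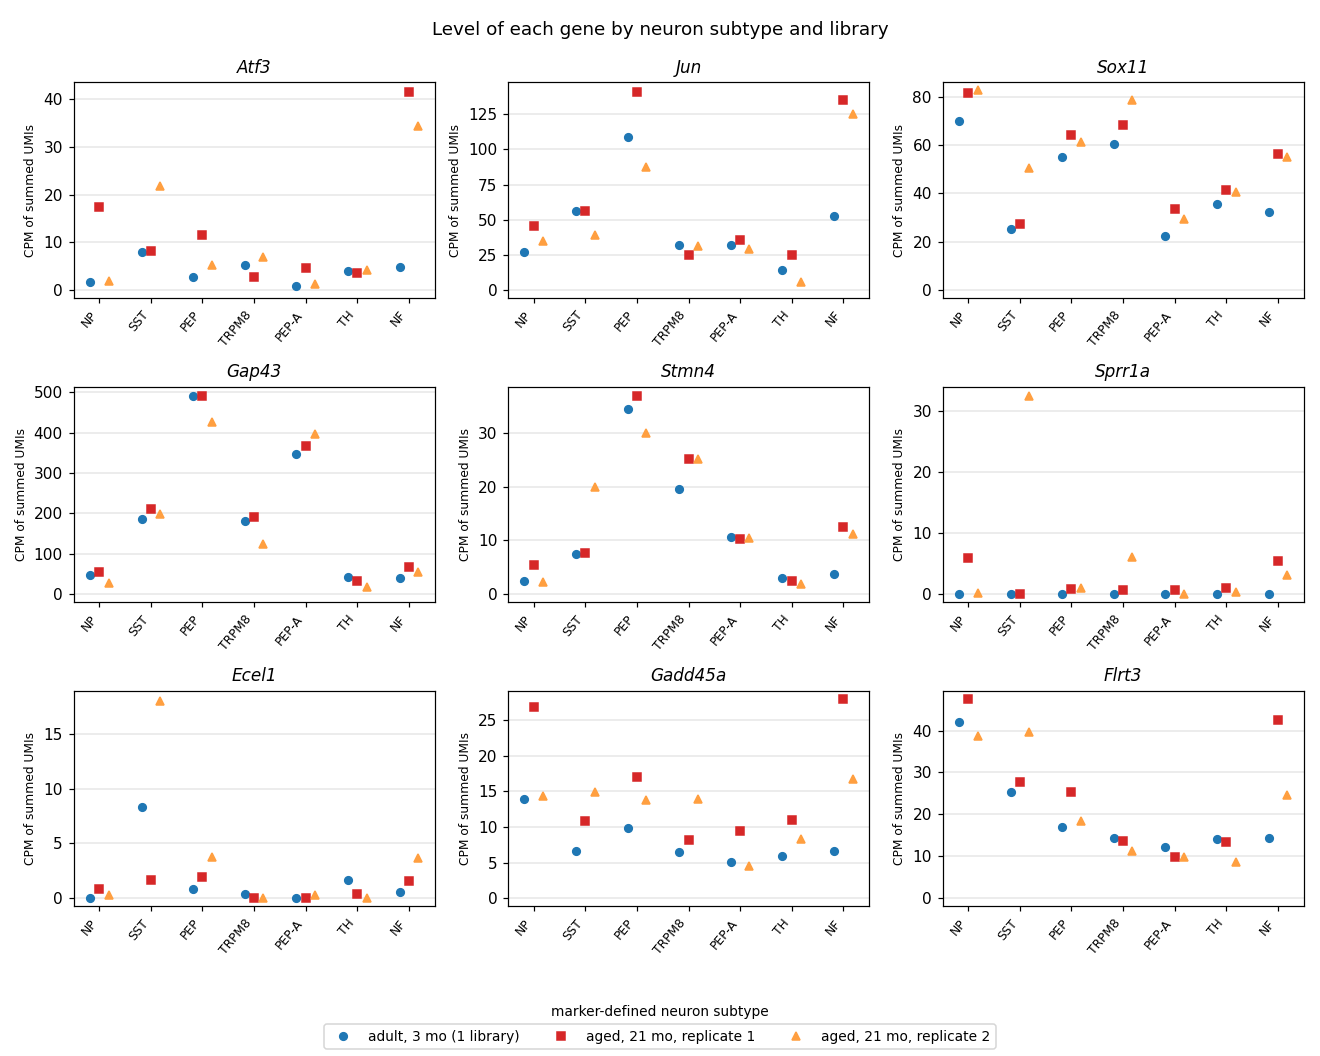
Level of each member, in CPM on a linear axis, in the 7 neuron subtypes, with 1 point per library. Gap43 and Stmn4 are highest in PEP-like nuclei and Sox11 and Flrt3 in NP-like nuclei, and Atf3 in NF-like nuclei is 4.74 CPM in the adult library against 41.5 and 34.4 in the aged libraries.

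The next comparison asks how the members differed between the aged and adult libraries. In neuron-like nuclei 3 of the 9 members were higher in the aged libraries, Sprr1a, Atf3 and Gadd45a, and 8 of the 9 had positive differences. Sprr1a, with 1 adult UMI, came past the filter on low counts through the aged libraries alone, where it was high. Its place in the counts of members, here and in the subtypes below, rests on that selection. Of all 21838 genes tested in these nuclei 9.24% passed in either direction and 1.8% passed as higher. The members' median difference was 0.43 on the log2 scale against 0.01 over all genes.

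Atf3 in neuron-like nuclei was 3.09, 18.3 and 9.07 CPM in the adult library and aged libraries 1 and 2, from 208, 748 and 274 UMIs. Both aged libraries lay above the adult library, and on the CPM scale they differed from each other by more than aged library 2 did from the adult library. The difference was 2.03 ± 0.28 on the log2 scale (adjusted p = 5.74e-11), and 1.45 without aged library 1. In free RNA Atf3 was 3.61, 19.1 and 14.3 CPM, above its neuron-like level in each library, and with the expected free RNA subtracted the difference was 1.97 with adjusted p = 0.386. The Atf3 difference itself changed little with the subtraction. No member passed in neuron-like nuclei after it, and the share of all genes passing in that fit is not given here.

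Sprr1a, which encodes a small proline-rich protein of the cell cortex that promotes axon growth, was nearly absent from the adult library. Its neuron-like UMIs were 1 in the adult library, 130 in aged library 1 and 82 in aged library 2, for 0.0148, 3.19 and 2.71 CPM. The ratio of aged to adult was 201, with a 95% counting interval of 35.7 to 7983 (adjusted p = 4.67e-21). That interval treats each UMI, pooled over the aged libraries, as a separate draw. It leaves out spread between nuclei and between libraries and is therefore too narrow. The 10 highest nuclei held 65.4% of the Sprr1a UMIs in aged library 1 and 96.3% in aged library 2. Free RNA held Sprr1a at 0.233, 9.07 and 7.07 CPM, above the neuron-like level in each library, and after subtraction its adjusted p was 0.0805.

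Gadd45a was 8.24, 19.8 and 12.0 CPM in neuron-like nuclei, a difference of 0.83 ± 0.25 (adjusted p = 0.0136), and the value was 0.44 without aged library 1 and 0.57 (adjusted p = 0.207) without clusters of low Malat1. DESeq2 did not call Gadd45a in these nuclei (adjusted p = 0.237), whereas it called Atf3 (4.45e-05) and Sprr1a (0.000107). For Gadd45a other levels were as follows. In free RNA Gadd45a was 16.5, 37.0 and 38.2 CPM. The members that did not pass were Ecel1 at 0.95 ± 0.42 (adjusted p = 0.153), Jun at 0.43 ± 0.23 (0.267), Flrt3 at 0.32 ± 0.23 (0.463), Sox11 at 0.28 ± 0.23 (0.535), Stmn4 at 0.21 ± 0.24 (0.684) and Gap43 at -0.05 ± 0.22 (0.932).

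The NF-like subtype held most of the members' differences. There 7 of the 9 members were higher in the aged libraries and all 9 had positive values, with a median of 1.45 against -0.02 over all genes. DESeq2 called 3 of the 7, Atf3, Jun and Gadd45a, gave Sprr1a no adjusted p, and did not call Stmn4 (adjusted p = 0.0814), Flrt3 (0.0789) or Sox11 (0.187). With the marker gate Sox11 (0.33), Stmn4 (0.84) and Flrt3 (0.63) lost the call. Of the 17804 genes tested in NF-like nuclei 20.2% passed in either direction and 9.25% passed as higher. Clusters of low Malat1 held 34.3% of adult NF-like nuclei against 58.6% and 54.4% of aged ones, and without those clusters the same 7 members passed in NF-like nuclei, with Atf3 at 2.95 (adjusted p = 1.78e-10) and Jun at 0.74 (adjusted p = 0.00909). The Sprr1a call there rested on aged library 1, since the cluster left held 0, 31 and 0 of its UMIs. The share of all genes passing without those clusters is not given here.

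Among the transcription factors, Atf3 in NF-like nuclei was 4.74 CPM in adult nuclei and 41.5 and 34.4 CPM in aged nuclei, from 78, 426 and 167 UMIs. The aged values were close to each other and far from the adult value, and the difference was 2.81 ± 0.23 (adjusted p = 1.71e-31). Jun was 52.8, 136 and 125 CPM, a difference of 1.10 ± 0.16 (adjusted p = 8.97e-10). Sox11 was 32.5, 56.5 and 55.2 CPM, a smaller difference of 0.58 ± 0.18 (adjusted p = 0.00954). For each of the 3 factors the adult library lay below both aged libraries.

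Of the growth cone genes, Stmn4 rose in NF-like nuclei from 3.77 CPM in the adult library to 12.5 and 11.1 in the aged libraries (1.45 ± 0.31, adjusted p = 5.18e-05), and Gap43 was 41.0, 68.2 and 55.2 CPM (0.40 ± 0.17, adjusted p = 0.0881). Sprr1a had no UMI in the 1159 adult NF-like nuclei, which allows a share of nuclei with a UMI of up to 0.259%, and 55 and 15 UMIs in the aged libraries. It was at least 25.4-fold higher in the aged libraries, against a floor of 3 UMIs (adjusted p = 8.97e-10). There too it came past the filter on low counts through the aged libraries alone. Gadd45a was 6.69, 28.0 and 16.7 CPM (1.58 ± 0.24, adjusted p = 1.51e-09), and Flrt3 was 14.4, 42.6 and 24.7 CPM (1.06 ± 0.20, adjusted p = 2.14e-06). The Flrt3 value was 0.57 without aged library 1. Ecel1 at 0.608, 1.56 and 3.71 CPM did not pass (1.78 ± 0.74, adjusted p = 0.0709). With the other clustering 9 of the 9 members passed in NF-like nuclei, Gap43 at 0.68 (adjusted p = 0.00365) and Ecel1 at 6.71 (adjusted p = 0.00372) among them. The share of all genes passing with that clustering is not given here. The Ecel1 value there was far from the 1.78 above, and the UMIs behind it are not given here. After subtraction of free RNA, Atf3 (2.85, adjusted p = 0.00124), Jun (1.13, adjusted p = 0.0113), Stmn4 (1.90, adjusted p = 0.0377) and Sprr1a (adjusted p = 0.0286) still passed in NF-like nuclei.

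Whether the age difference of NF-like nuclei was larger than the mean of those of the other subtypes was tested in 1 fit, a comparison added after the data had been seen. Jun (1.21 ± 0.27, adjusted p = 0.0208) and Flrt3 (1.18 ± 0.27, adjusted p = 0.0232) passed, as did 5.95% of the 16376 genes. Atf3, at 1.88, did not (adjusted p = 0.162), nor did Stmn4 at 1.37 (adjusted p = 0.0612) or Gadd45a at 1.01 (adjusted p = 0.099). With the other clustering 6 members passed, the others being Stmn4 at 1.91 (adjusted p = 0.0142), Gap43 at 1.00 (0.0224), Sox11 at 0.73 (0.0373) and Gadd45a at 1.21 (0.0383). The share of all genes passing with that clustering is not given here. Neither the Jun nor the Flrt3 call held without clusters of low Malat1, at 0.99 and 0.92, or with the marker gate, at 0.73 and 0.60. With free RNA subtracted Flrt3 did not pass (1.91, adjusted p = 0.297) and Jun could not be fitted.

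**Figure D3:**
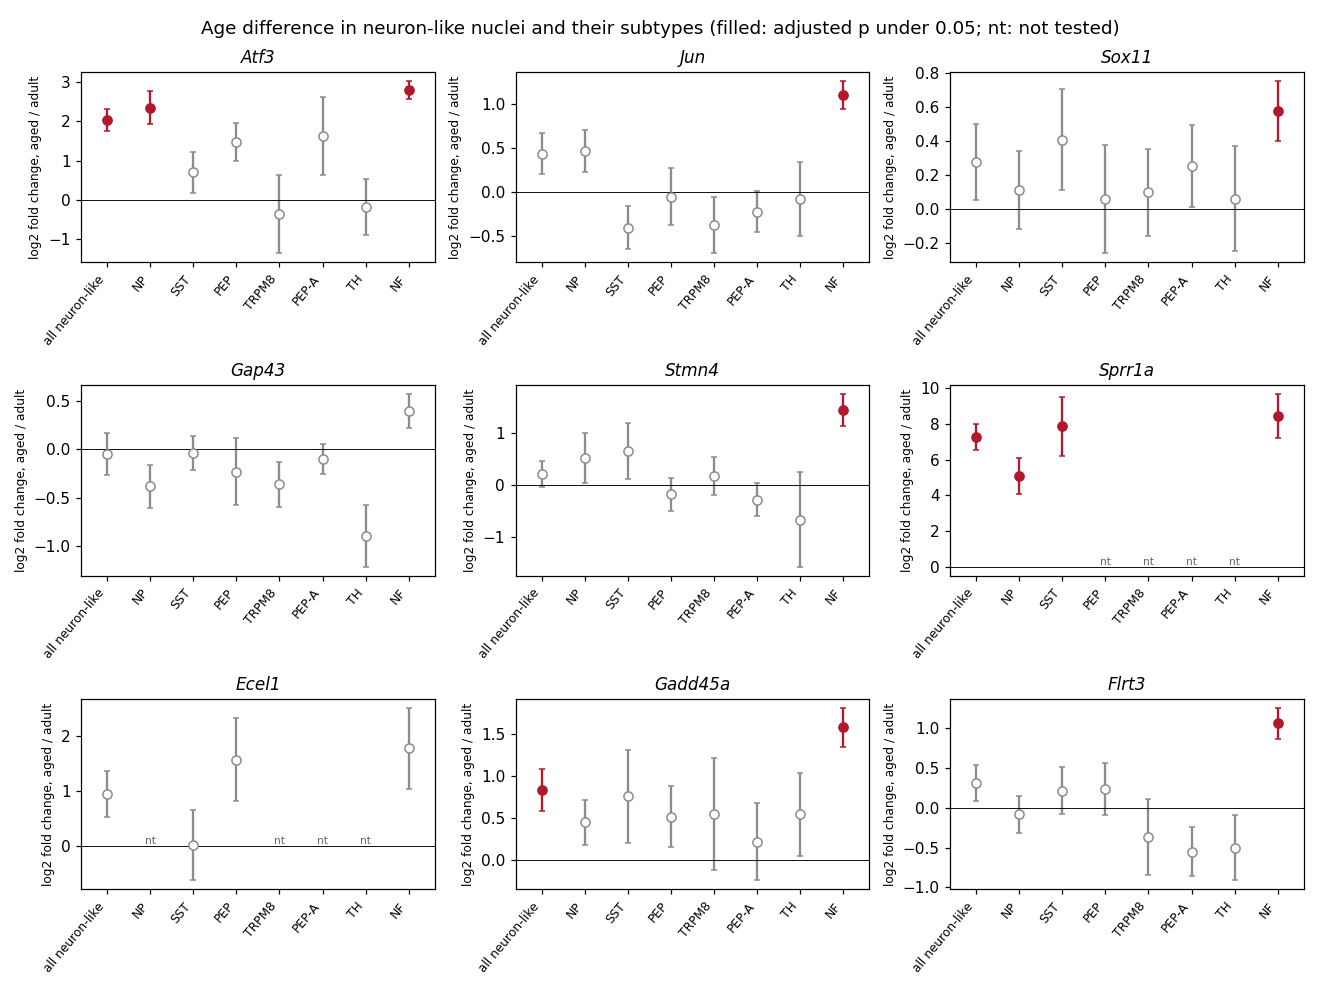
Difference between aged and adult libraries, as log2 fold change with its SE, for each member in all neuron-like nuclei and in each neuron subtype, filled where the adjusted p is under 0.05 and marked nt where not tested. All 9 members lie above 0 in NF-like nuclei, with Sprr1a and Atf3 the farthest from it.

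In the other subtypes the members that passed rested on single aged libraries. In NP-like nuclei, where 7.38% of genes passed, Atf3 was 1.75 CPM in the adult library, 17.4 in aged library 1 and 1.91 in aged library 2. The test gave 2.35 ± 0.43 (adjusted p = 2.88e-06), and without aged library 1 the difference was 0.03. Sprr1a in NP-like nuclei had 1, 61 and 2 UMIs, 47.2 times the adult level (counting interval 8.17 to 1894) (adjusted p = 2.64e-05), and its log2 difference without aged library 1 was 1.57 on the fitted scale. This interval too leaves out spread between nuclei and libraries, and 1 nucleus held 33 of the 61 UMIs. In SST-like nuclei, where 5% of genes passed, Sprr1a was at least 12.1-fold higher, but all its UMIs were in aged library 2 (adjusted p = 0.000483). With free RNA subtracted the adjusted p was 0.692 for Atf3 and 0.581 for Sprr1a in NP-like nuclei and 0.616 for Sprr1a in SST-like nuclei, and DESeq2 called none of these 3. No member passed in PEP-like, TRPM8-like, PEP-A-like or TH-like nuclei, where 1.67%, 1.37%, 4.08% and 2.24% of genes did, and at an unadjusted p under 0.05 there were 2, 0, 0 and 1.

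Outside neurons, 5 differences passed, in 3 classes. In nuclei like myelinating Schwann cells (MSC-like), where 13.1% of genes passed, Jun was 28.6, 68.4 and 67.6 CPM (1.18 ± 0.26, adjusted p = 0.000173). JUN is known there as the factor that drives the repair state of Schwann cells. Gap43 in the same nuclei was 66.3 CPM in the adult library, 44.9 in aged library 1 and 39.3 in aged library 2 (log2 difference -0.70, adjusted p = 0.0297). Free RNA made up an estimated fraction of 0.215, 0.130 and 0.116 of the UMIs of these nuclei and held Gap43 at 285, 312 and 286 CPM, and with it subtracted the difference was -0.21 (adjusted p = 0.952). Stmn4 had 22, 5 and 2 UMIs there, a log2 difference of -2.44 ± 0.82 (adjusted p = 0.0266), and the call held with free RNA subtracted (adjusted p = 0.0297) and was lost with more than 2000 genes per nucleus (adjusted p = 0.197). Gap43 was also lower in aged fibroblast-like nuclei, at 73.1, 46.1 and 35.6 CPM (-0.89 ± 0.27, adjusted p = 0.0204), where 7.26% of genes passed. The estimated fraction of free RNA there was 0.202, 0.168 and 0.105, and with it subtracted the difference was -2.81 ± 0.80 (adjusted p = 0.00863). In SGC-like nuclei, where 14.3% of genes passed, Flrt3 was 12.0, 22.1 and 23.9 CPM (0.77 ± 0.26, adjusted p = 0.0258), and Atf3 was 1.15, 6.81 and 1.99 CPM (adjusted p = 0.0552). With free RNA subtracted Flrt3 did not pass in these nuclei (adjusted p = 0.106). DESeq2 called none of the 5, and gave Stmn4 no adjusted p. Malat1 was 6.56%, 2.16% and 2.11% of UMIs in MSC-like nuclei and 4.95%, 2.10% and 2.03% in fibroblast-like nuclei. In SGC-like nuclei it was 9.09%, 2.44% and 2.53%, and its bearing on these calls was not tested. With the other clustering the calls of Gap43 in MSC-like nuclei (-0.64, adjusted p = 0.0543) and of Flrt3 in SGC-like nuclei (0.66, adjusted p = 0.0538) were lost. No member passed in NMSC-like, endothelial-like, myeloid-like or lymphocyte-like nuclei, where 7.26%, 2.24%, 0.828% and 2.14% of genes did, and at an unadjusted p under 0.05 there were 2, 0, 2 and 1. Gap43 in myeloid-like nuclei, at -2.19 (adjusted p = 0.075), passed with the other clustering at -2.21 (adjusted p = 0.00803).

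The age difference of each other class was also set against that of neuron-like nuclei in 1 fit, with 7 members tested. Gap43 in myeloid-like nuclei was the member that passed, where 1.22% of genes did. The difference was -1.98, and with free RNA subtracted it was -3.54 ± 1.63 with adjusted p = 0.395, from estimated fractions of 0.168, 0.0844 and 0.0585, and with more than 2000 genes per nucleus too few adult myeloid-like nuclei were left to test it. No member passed for SGC-like, NMSC-like, MSC-like, fibroblast-like, endothelial-like or lymphocyte-like nuclei, where 0.388%, 0.395%, 0.632%, 0.596%, 0.0359% and 0.273% of genes did, and at an unadjusted p under 0.05 there were 0, 0, 3, 3, 1 and 1.

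Atf3 was not spread evenly over the neurons. The share of neuron-like nuclei with an Atf3 UMI was 3.13% in the adult library (exact 95% interval 2.64 to 3.68), 8.02% in aged library 1 (6.97 to 9.18) and 7.07% in aged library 2 (5.73 to 8.60), intervals that cover counting error only. With each nucleus thinned to 1000 UMIs the shares were 0.352%, 1.32% and 0.922%. In SGC-like nuclei, taken as a background class, the unthinned shares were 0.374%, 2.37% and 1.20%. Median UMIs of SGC-like nuclei were 3071, 6991 and 7367, against 7392, 5764 and 7492 in neuron-like nuclei. Unthinned SGC-like shares therefore also differ by depth between the libraries. For Sprr1a the neuron-like shares were 0.022%, 1.86% and 0.998%, against 0 of 3473, 0.645% and 0.402% in SGC-like nuclei.

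A few nuclei held much of the Atf3. Nuclei with 5 or more Atf3 UMIs were 3 of 4541 in the adult library (0.0661%, exact interval 0.0136 to 0.193), 30 of 2418 in aged library 1 (1.24%, 0.839 to 1.77) and 9 of 1302 in aged library 2 (0.691%, 0.317 to 1.31). With the other clustering they were 3 of 4131, 28 of 2220 and 8 of 1223. In the clusters used here they carried 14.9%, 70.3% and 52.2% of the neuron-like Atf3 UMIs. Of these nuclei 1, 20 and 6 were NF-like. They were also deep, with median UMIs of 40969, 38171.5 and 43478 against 7369, 5638.5 and 7397 in the other neuron-like nuclei, so they were set beside the 385, 342 and 291 other neuron-like nuclei at or above that median.

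The members described next were higher in these nuclei than in the deep nuclei beside them, except Sprr1a in the adult library. Sox11 was 371, 279 and 278 CPM in them against 39.4, 50.6 and 53.1, and Flrt3 was 371, 236 and 239 CPM against 18.6, 23.2 and 19.7. Jun was 301, 244 and 173 CPM against 33.1, 46.6 and 36.3, and Gadd45a was 63.8, 141 and 68.8 CPM against 6.82, 10.1 and 8.05. Gap43 differed by the smallest ratio in each library, at 765, 209 and 371 CPM against 145, 163 and 144. Sprr1a was 0, 48.6 and 143 CPM against 0, 0.350 and 0.546, from 13 of the 30 nuclei in aged library 1 and 2 of the 9 in aged library 2. A few nuclei carried it, with 33 and 13 UMIs in 2 nuclei of aged library 1 and 27 and 25 in 2 SST-like nuclei of aged library 2, and the 3 nuclei highest in Atf3 in aged library 2 held none. Stmn4 was 168, 61.1 and 140 CPM against 6.39, 10.3 and 8.19, and Ecel1 was 58.0, 17.1 and 102 CPM against 0.429, 0.613 and 1.24. These are descriptions of single nuclei grouped by Atf3 and carry no test.

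**Figure D4:**
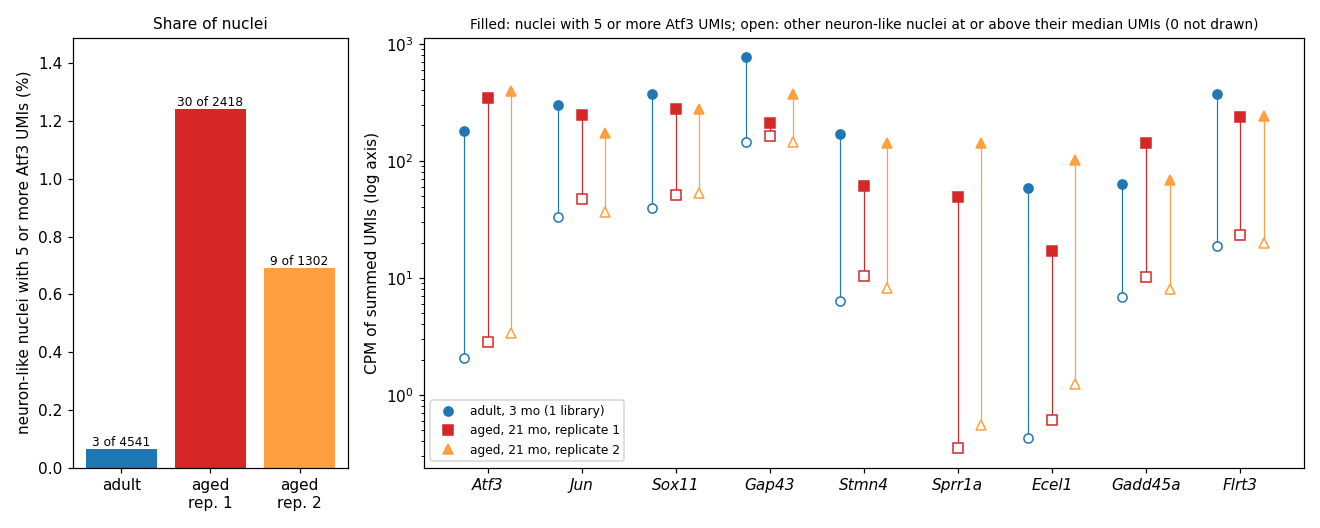
Left, share of neuron-like nuclei with 5 or more Atf3 UMIs in each library, in percent. Right, level of each member, in CPM on a log axis, in those nuclei (filled) and in the other neuron-like nuclei at or above their median UMIs (open), by library, with levels of 0 not drawn. Sox11, Flrt3, Jun and Gadd45a are higher in the nuclei rich in Atf3 in all 3 libraries.

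Members were also found together in single nuclei. Atf3 and Sprr1a shared 29 nuclei in aged library 1, where the product of their shares would give 3.61, and 8 in aged library 2, where it would give 0.919. Nuclei with UMIs of 7 or more members were 6 in the adult library (0.132%, exact interval 0.0485 to 0.287), 35 in aged library 1 (1.45%, 1.01 to 2.01) and 17 in aged library 2 (1.31%, 0.762 to 2.08). An NP-like nucleus of aged library 1 with 76546 UMIs held all 9 members, among them 43 UMIs of Atf3, 80 of Sox11, 33 of Sprr1a and 26 of Gadd45a. Deep nuclei hold more members by depth alone. With each nucleus thinned to 1000 UMIs, Atf3 and Sprr1a shared 2 nuclei in aged library 1, where the product of the shares was 0.106, and 2 in aged library 2, where it was 0.0276. Over all 36 pairs of members, those above the product of their shares were 31, 36 and 36 in the adult library and aged libraries 1 and 2, and 17, 27 and 25 after thinning, when 17, 8 and 7 pairs shared no nucleus. For many thinned pairs the product was under 1, so 1 shared nucleus put the pair above it. For such pairs the thinned count mostly repeats whether any nucleus was shared. Thinned nuclei with 3 or more members were 15 in the adult library (0.330%), 22 in aged library 1 (0.910%) and 8 in aged library 2 (0.614%).

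Without the nuclei of 5 or more Atf3 UMIs, an alternative chosen after the data had been seen, the age differences were smaller. The nuclei removed were mostly aged, and Flrt3, Sox11, Stmn4, Gadd45a and Jun were higher in them than in other deep nuclei. For these members too, some drop was therefore fixed by the choice of nuclei and is no separate test. The values show only what was left in the remaining nuclei. In NF-like nuclei Atf3 went to 1.22 (adjusted p = 0.0612), a drop that removing nuclei by their Atf3 brings about in part by itself. Flrt3 went to 0.28 (adjusted p = 0.456), Sox11 to 0.26 (adjusted p = 0.406), Stmn4 to 0.95 (adjusted p = 0.125) and Gadd45a to 1.16 (adjusted p = 0.0515). Jun, at 1.04, and Sprr1a still passed, both with adjusted p = 0.0222. Jun had nearly the difference and SE given above for all NF-like nuclei, at 1.04 ± 0.16, but a far larger adjusted p. The lost calls in this NF-like fit therefore cannot be laid to smaller differences alone. In neuron-like nuclei as a whole, Sprr1a alone passed (adjusted p = 5.55e-11).

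The wider injury pathway was taken from 7 lists. In neuron-like nuclei none of 10 injury transcription factors, 10 kinases upstream of JUN, 12 growth cone and cytoskeleton genes, 7 stress genes and 6 repair Schwann genes passed the age test, and the growth cone list had a median of -0.33 against 0.01 over all genes. Of 14 injury-induced secreted and surface proteins 2 were higher, beside 1.8% of all genes, the neuropeptide gene Npy (2.50 ± 0.50, adjusted p = 2.7e-05) and the macrophage growth factor gene Csf1 (0.75 ± 0.25, adjusted p = 0.0367). The cytokine gene Lif was lower (-2.40 ± 0.22, adjusted p = 8.58e-26), and it was lower in 14 of the 15 classes and subtypes tested. Of all genes 7.44% were lower. Of 8 AP-1 and immediate early genes, Fosl1 was lower at -1.94 ± 0.42 (adjusted p = 0.000162).

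In NF-like nuclei 6 of the 14 secreted and surface proteins tested were higher and 1 was lower, and 2 of 12 growth cone genes were higher, beside 9.25% of all genes higher and 20.2% in either direction. Of the injury transcription factors, stress genes and repair Schwann genes 1 each was higher, and 1 of 10 kinases upstream of JUN and 1 of 7 AP-1 and immediate early genes were lower. Srxn1, an antioxidant enzyme gene of the stress list, was 60.6, 142 and 128 CPM there (0.96 ± 0.16, adjusted p = 8.8e-08), and Ngfr, the p75 neurotrophin receptor gene, was 78.5, 152 and 144 CPM (0.71 ± 0.15, adjusted p = 8.63e-05).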

How the data were processed

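Single-nucleus libraries were made by PIP-seq from L3 to L5 DRGs, 1 from adult and 2 from aged mice. The deposited files hold raw counts of UMIs for every barcode and gene, made by the authors with Pipseeker on build mm10, per the submitters' processing notes and the study's methods. The annotation is not given in the sources used here. Nuclei with more than 1000 genes were kept and clustered with Seurat 5.3.0 (R 4.3.3), and 30 clusters were named from marker genes. The clustering was first run in the C.UTF-8 locale, and the comparisons were built on it. Run later in the C locale, in which R orders names differently, it gave 32 clusters, and the step at which this acts was not traced. The first was kept because it came first, a choice made after both had been seen, and the other is given as an alternative added after seeing the data. Over all comparisons 70 and 74 values of members passed, 62 of them in both. The 2 clusters with markers of several classes (1406 nuclei) and 230 unnamed nuclei were left out of the tests. No doublet caller was run. Counts were summed per library and class and tested with edgeR 4.0.16 (TMM, filterByExpr, quasi-likelihood test, Benjamini-Hochberg adjustment over all genes tested, threshold 0.05), with library as a block for class and subtype levels. In the age tests, with 1 adult library, the filter kept a gene that had enough UMIs in a single library. A gene could therefore enter through the group where it was high, as Sprr1a did. Classes needed 20 or more nuclei in every library. The SE is the log2 difference divided by the square root of F. DESeq2 1.42.0 was an alternative. Gene levels were not compared between genes, since lengths were not corrected.

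The test was tried on simulated counts, drawn with the spread of its own fit and no other difference between libraries. Such counts cannot show how far the p-values hold between real libraries. For neuron-like nuclei (21838 genes) the test recovered 50% of genes changed 2-fold and 88% of those changed 4-fold, for NF-like nuclei (17804 genes) 58% and 82%, and for myeloid-like nuclei (9787 genes) 7% and 44%. False calls were 7, 7 and 4 genes. The members and lists were chosen with earlier results of these data known. The text names all 9 members, up to 4 genes of each list past the age test in neuron-like nuclei and up to 3 in other classes, and the 3 genes most correlated with each member of 200 or more UMIs. Results for 2 genes that this rule names are not reported here.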

Additional observations from a re-analysis of the deposited data

Results flagged for a closer look

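The age difference of Gap43 in myeloid-like nuclei minus that in neuron-like nuclei was -1.98 ± 0.40 on the log2 scale (edgeR's quasi-likelihood test of the interaction, adjusted p = 0.0155), the only member and class to pass that test, where 1.22% of genes did for myeloid-like nuclei. Gap43 there was 137, 30.5 and 28.3 CPM from 18, 27 and 18 UMIs, and in free RNA it was 285, 312 and 286 CPM. With free RNA subtracted the difference did not pass (-3.54 ± 1.63, adjusted p = 0.395), and with more than 2000 genes per nucleus it had no value. In NF-like nuclei the age differences of Jun and Flrt3 exceeded the mean of the other subtypes, by 1.21 and 1.18. Both calls were lost with the marker gate (0.73 and 0.60) and without clusters of low Malat1 (0.99 and 0.92), and with free RNA subtracted Flrt3 did not pass and Jun could not be fitted.

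Nuclei and barcodes outside the tests also held more of some members in the aged libraries. In the clusters of mixed markers the aged mean was 8.48 times the adult level for Atf3 (2.29, 17.5 and 21.3 CPM), 14.8 times for Sprr1a (0.762, 10.7 and 11.8 CPM) and 1.85 times for Jun (80.4, 158 and 140 CPM). In free RNA the aged mean was 4.62 times the adult level for Atf3, 34.6 times for Sprr1a, 1.80 times for Jun, 2.28 times for Gadd45a and 1.53 times for Flrt3.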

How the results depend on the processing

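Followed under each alternative were the single-gene values that had passed, the age differences in neuron-like and NF-like nuclei, and neuron-like levels against other classes. Calls gained elsewhere are not counted here. Of the values followed, 657 kept their direction and side of the threshold (or moved by less than the spread), 114 lost the call, 5 gained it, 16 moved and 9 turned direction. The cause was not tested for any of these. Among the counts of calls, the 3 members passing the age test in neuron-like nuclei became 0 with free RNA subtracted and 1 without nuclei of 5 or more Atf3 UMIs. The 10 calls in subtypes became 4 with free RNA subtracted and 3 with DESeq2, and the 5 in non-neuronal classes became 3 with more than 2000 genes per nucleus, 8 with the marker gate and 0 with DESeq2. The 2 members whose NF-like difference exceeded the other subtypes became 6 with no filter on low counts, 6 with the other clustering and 0 with the marker gate, with free RNA subtracted and without clusters of low Malat1. The 1 interaction call became 3 with no filter, 2 with the marker gate and 0 with free RNA subtracted or with more than 2000 genes, where myeloid-like nuclei were too few to test. The 19 calls on class levels became 10 with more than 2000 genes and ranged from 10 to 20 with 1 library left out, and the 5 for neuron-like against other classes from 3 to 6. The shares of all genes passing under these alternatives are not given here, so the counts cannot be set against them. The aged over adult ratio of the Atf3 share, 2.41, was 3.19 thinned and 2.64 with the marker gate. With the marker gate, values turned for Gap43 in lymphocyte-like (1.23), SST-like (-0.54), TRPM8-like (-0.00208) and NF-like nuclei (0.0101) and for Gadd45a in PEP-A-like (0.18) and NF-like nuclei (-0.14). Jun in neuron-like against other classes was -0.28 without clusters of low Malat1, and with 1 aged library left out Sprr1a in SST-like nuclei ranged from -5.29 (without aged library 2) to 5.30 and the age difference of Gap43 in neuron-like nuclei from -0.13 to 0.00817. Leaving out an aged library gave age differences with no test, leaving out the adult library gave none, and the interactions were not run without a library, since no residual degrees of freedom remain. No paired analysis was possible because the groups share fewer than 2 replicate numbers. The other clustering gave no value for 2 levels in lymphocyte-like nuclei, a class then under 20 nuclei in the aged libraries. Depth limits Sprr1a and Ecel1, which were too scarce for most classes.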

Other observations

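Schwann-like nuclei of the aged libraries held more RNA of Shh and Runx2, which are known from Schwann cells after nerve injury. Of the repair Schwann genes 2 of 4 tested were higher in MSC-like nuclei and 4 of 5 in NMSC-like nuclei, where 13.1% and 7.26% of all genes passed in either direction. In MSC-like nuclei Shh, the gene of a secreted morphogen, was 3.06 CPM in the adult library and 69.3 and 53.4 CPM in the aged libraries (4.26 ± 0.43 on the log2 scale, adjusted p = 8.62e-21 by edgeR's quasi-likelihood test). In NMSC-like nuclei Runx2, a transcription factor gene, was 52.7, 327 and 591 CPM (2.93 ± 0.29, adjusted p = 2.02e-19). Runx2 was higher in 5 of the 15 classes and subtypes in which it was tested, so not in Schwann-like nuclei alone. Shh was higher in 1 of 9. In MSC-like nuclei 8 of 12 growth cone and cytoskeleton genes were lower and none was higher, among them the tubulin gene Tuba1a and the cytoskeletal regulators Dpysl3 and Stmn3, with log2 differences of -0.62, -1.01 and -0.99. The estimated fraction of free RNA in these nuclei was 0.215 for the adult library, 0.130 for aged library 1 and 0.116 for aged library 2, and its part in these values was not tested.

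Other genes of the lists passed the age test outside neurons or in single subtypes. In fibroblast-like nuclei Socs3, a feedback inhibitor of cytokine signalling, was higher (2.73 ± 0.49 on the log2 scale, adjusted p = 2.16e-06 by edgeR), and the transcription factor genes Klf4 (-1.75) and Klf9 (-0.92) were lower. In SGC-like nuclei the kinase gene Mapk10 (0.80) and the adhesion gene Chl1 (0.85) were higher and the immediate early gene Egr1 was lower (-1.39). Of the 15 classes and subtypes tested, Mapk10 was lower in 3 and Klf9 was higher in 1. In MSC-like nuclei the kinase gene Map3k13 was higher (0.61) and the heat shock protein gene Hspb1 lower (-1.46). Gadd45g was higher in NP-like nuclei (1.53), and Fosl2, an AP-1 subunit gene, had 1, 35 and 27 UMIs in NMSC-like nuclei (adjusted p = 6.72e-05). In NF-like nuclei Lif (-2.54) and Fosl1 (-3.11) were lower.

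The genes whose levels went most closely with a member were sought across 42 sums of class by library, which share libraries and differ in depth, among 16815 genes. For Gap43 they included Scg2 and Gm13028, and for Sox11 they were Dhx32 (r = 0.89), Grip1 and Gm26608. Stmn4 went most closely with Rasef (r = 0.82), Plpp4 and D430019H16Rik, and Gadd45a with Stx12 (r = 0.81), Larp4b and Rogdi. Flrt3 went with Nnat (r = 0.73), Hspa12a and Npdc1, and Atf3 with Atp6v1c1 (r = 0.72), Gdi2 and Vps50. Jun went with Timp2 (r = 0.70), Ier5l and Esd, and Sprr1a with Gm31831 (r = 0.59), Opa1 and Zfp81.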
